A study of Mus musculus with 27 samples.

Results

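The clustered protocadherin genes lie in 3 neighbouring arrays, Pcdha, Pcdhb and Pcdhg, on mouse chromosome 18, and their DNA methylation is described here for C2C12 cells, a mouse muscle line. The members are the cytosine positions of the deposited table on chromosome 18 from 36.9 Mb to 37.85 Mb (mm10) that had a methylation level in all 27 libraries. There were 978 such positions, of 871894 in the whole table, and of 1111 listed in the interval with or without missing values. They formed 58 runs, in which neighbouring positions lay at most 200 bp apart, of 18447 runs with at least 3 positions in the table. Positions below 37.2 Mb were counted as the alpha cluster (187 positions, 10 runs), those up to 37.6 Mb as the beta cluster (130 positions, 12 runs), and those above as the gamma cluster (661 positions, 36 runs). The level is the share of methylated cytosine, in percent, measured by reduced representation bisulfite sequencing (RRBS), which reads short restriction fragments rich in CpG sites after unmethylated cytosines have been converted.

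The libraries came from C2C12 myoblasts that were differentiated in medium with 2% horse serum and then given 50% horse serum for 2 h, a treatment known to synchronise the daily clocks of cells in culture. Cells were sampled at 12, 18, 24, 30, 36, 42, 48, 54 and 60 h after the shock, with 3 libraries at each of the 9 times. All cells carried the same line's genome and had the same treatment, and unshocked cells were not analysed here. The labels do not say whether replicates were separate cultures, so p-values measure the spread between these libraries, which may be technical.

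Protocadherins of these arrays are adhesion proteins of the cell surface, related to cadherins, and are best known from neurons, where each cell displays a small combination of them as an identity tag. Every gene of the alpha and gamma arrays has its own promoter and its own large variable exon, which encodes the extracellular part, and is spliced to a few constant exons shared by the whole array; the beta genes have no shared exons. Promoter choice is known to depend on the insulator protein CTCF and on cohesin, which bind unmethylated promoters, and promoter methylation is a known mark of silent protocadherin genes. The last genes of the alpha and gamma arrays are called C-type (Pcdhac1, Pcdhac2, Pcdhgc3, Pcdhgc4 and Pcdhgc5) and are regulated apart from the rest. All genes of the arrays run in the direction of rising coordinates, so the lower end of each annotated gene was taken as its start.

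No read counts come with the levels, and their depth is therefore unknown. Over the 351 pairs of libraries, the Pearson correlation across the protocadherin positions lay between 0.879 and 0.968. Pairs from the same time averaged 0.931 and pairs from different times 0.934. These correlations run over positions of one genome, not over replicates. The mean level of the 978 positions lay between 53.6% (24 h, replicate 1) and 56.8% (12 h, replicate 2), with a median of 55.6%. Replicate 3 of 12 h lacked a value at 87 of the 1111 positions, the most of any library, and has the largest share of levels at exactly 0 in the table as a whole (25.4%). Levels at near positions share information: deviations from the mean over libraries had a Pearson correlation of 1.00 at 1 bp (218 pairs), 0.666 at 41 to 60 bp (1084 pairs) and 0.166 at 81 to 100 bp (687 pairs). Joining positions 1 bp apart left 760 stretches, most of them single positions or pairs, and the longer ones can span more than 1 CpG. A level that is so close to its neighbours' may not rest on the reads of its own position alone, and the way levels were computed was not stated in the sources used here. Levels of single positions and their gradients, below, carry this limit.

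The arrays were highly methylated compared with the rest of the measured genome. The median run of the interval stood at 66.4%, against 6.18% for the 18389 other runs. Of the 58 protocadherin-interval runs, 42 (72.4%) had a mean level of 50% or more, against 15.1% of the other runs, and 24 (41.4%) had 75% or more, against 7.31%. Under 10% were 2 of the 58 runs (3.45%), both of Pcdhgc3, against 57.5% of the other runs. The 452 runs of chromosome 18 outside the interval resembled the genome, with a median of 5.58% and 13.5% at 50% or more. These counts are descriptions, since the members were chosen with earlier results known. Run sizes were not matched: the runs of the interval held a median of 12 positions, against 32 in the other runs. Among the other runs, those with more positions tended to have lower levels (Spearman correlation -0.479).

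**Figure D1:**
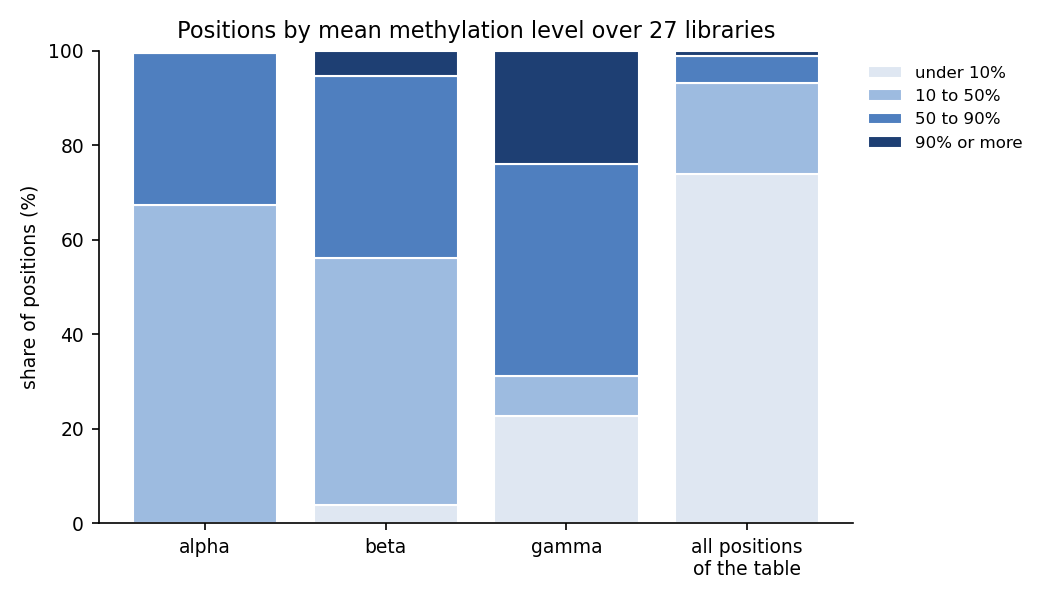
Share of positions (y axis, percent) in 4 classes of mean methylation level for the alpha, beta and gamma clusters and for all 871894 kept positions (x axis). Positions under 10% make up 0% of alpha, 3.85% of beta and 22.7% of gamma, against 73.9% of all positions. Those of gamma all belong to Pcdhgc3 or to Taf7, which is not a protocadherin gene, and those of beta to Pcdhb2.

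With every position weighing the same, the 3 clusters had the same order of level in every library, but beta and alpha did not keep it when every run weighed the same. The gamma mean was 60.3% ± 0.806 (SD over 27 libraries; lowest library 58.6%, median 60.4%, highest 61.5%). The beta mean was 49.9% ± 2.63 (43.9%, 49.6%, 54.5%), and the alpha mean 42.6% ± 1.98 (38.8%, 43.2%, 46.1%). Gamma lay above alpha by 13.8 to 21.6 points and above beta by 5.94 to 17.3 points, in 27 of 27 libraries each. Beta lay above alpha by 0.381 to 13.6 points, also in 27 of 27. Each cluster mean pools genes with different numbers of measured positions. With every run weighing the same, gamma stood at 72.1%, beta at 48.6% and alpha at 48.9%. Gamma then remained above both in 27 of 27 libraries, whereas beta lay above alpha in 12 of 27 (-5.65 to 6.06 points), so no order of beta and alpha holds under both weightings. The 2 runs of Pcdhgc3, which are nearly unmethylated, hold 119 of the 661 gamma positions.

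**Figure D2:**
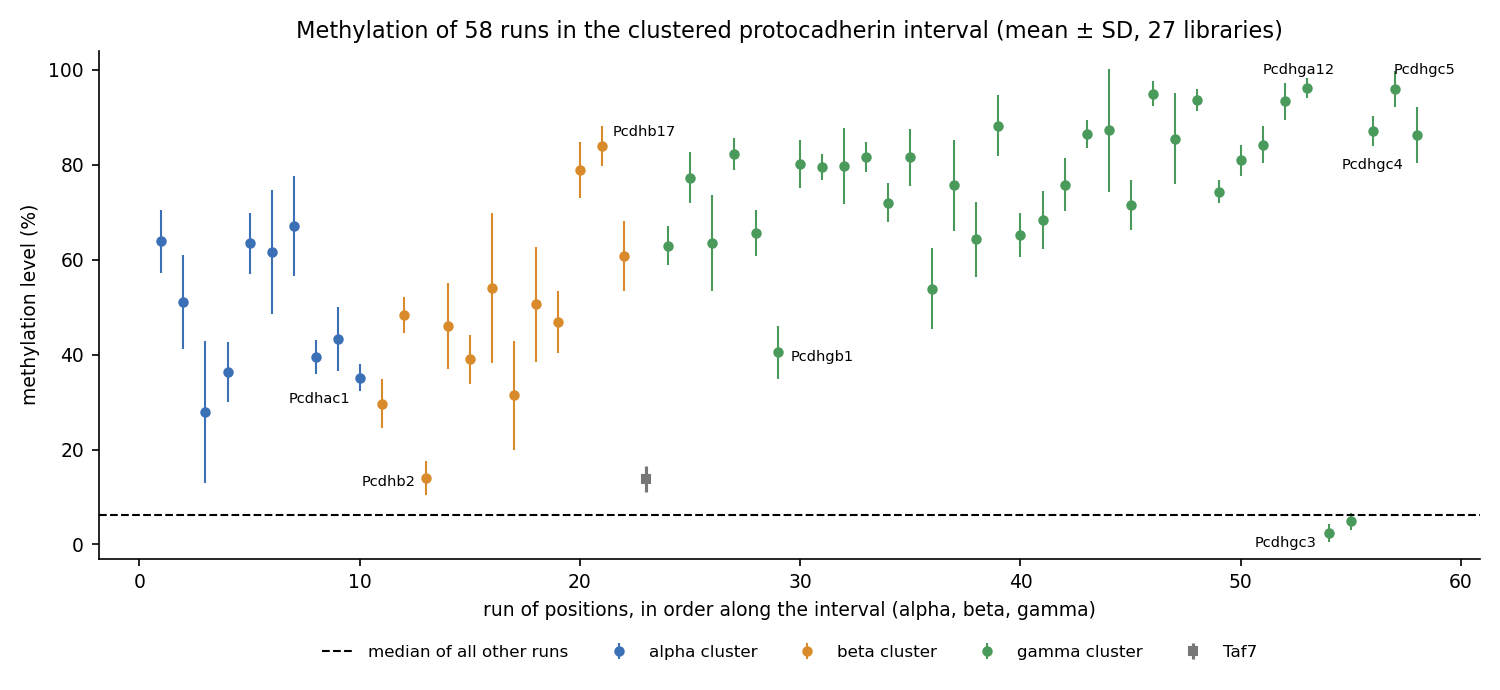
Mean methylation level (y axis, percent, ± SD over 27 libraries) of the 58 runs in their order along the interval (x axis), by cluster, with the median of all other runs as a dashed line. Most gamma runs lie above 60%, the alpha and beta runs spread over the middle of the scale, and the 2 runs of Pcdhgc3 lie near 0.

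Of the 58 genes of the arrays, 36 had kept positions from 1000 bp before their start to 4000 bp after it. The other 22 are not described further: Pcdha1, Pcdha2, Pcdha6, Pcdha7, Pcdha9, Pcdha10 and Pcdha11 of alpha, 13 of the 22 beta genes (Pcdhb3 to Pcdhb6, Pcdhb8, Pcdhb9, Pcdhb11, Pcdhb12, Pcdhb14 and Pcdhb19 to Pcdhb22), and Pcdhga6 and Pcdhgb5. A window from 1000 bp before to 500 bp after the start held at least 3 kept positions for 22 genes, and is called the start window below. The borders of the constant exons at the far end of the alpha and gamma arrays are not annotated here, so their coverage was not examined. The last alpha run ended 42615 bp before the end of Pcdhac2, and the last gamma run 20304 bp before the end of Pcdhgc5. Places within a gene are given as distance from its start. Variable exons of one array are alike in sequence, and the placing of reads that could match several copies was not stated in the sources used here.

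Among the alpha genes with numbered variable exons, levels were intermediate and varied from library to library. Pcdha12 stood at 64.4% ± 8.96, Pcdha3 at 63.9% ± 6.58, Pcdha8 at 63.5% ± 6.45, Pcdha4 at 51.1% ± 9.94 and Pcdha5 at 33.1% ± 6.72 (SD over 27 libraries, all kept positions of the gene). The spread of these genes was wide, so Pcdha12, Pcdha3 and Pcdha8 do not differ beyond it. The first run of Pcdha5, at 36960465 to 36960523 (189 to 247 bp after the start, 5 positions), was the most variable of the alpha runs. Its library levels ran from 6.86% over a median of 24.4% to 62.2%, with an SD of 15.0. Levels over 50% there came from 24 h (54.6% in replicate 1 and 51.3% in replicate 2), 48 h (62.2% in replicate 2) and 60 h (60.0% in replicate 3), while the other libraries of 48 h and 60 h stood between 15.1% and 38.1%. The first run of Pcdha12 had its lowest value, 14.5%, in replicate 3 of 12 h, against a median of 63.7%.

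The alpha C-type genes were lower than the measured numbered alpha genes other than Pcdha5, and were steeply graded over short distances. The place of the measured fragments within the gene differs between the C-type and the numbered genes. Pcdhac1 stood at 40.1% ± 3.34 over 53 positions (lowest library 31.0%, median 40.4%, highest 45.4%) and Pcdhac2 at 35.2% ± 2.76 over 76 positions (32.4%, 34.1%, 41.6%). In Pcdhac1 the level was 10.5% at -214 bp from the start, 23.4% at -38 bp and 65.7% at 247 bp. Further into the gene it was 60.8% at 1847 bp and 13.8% at 2041 bp. In Pcdhac2, positions from 126 to 216 bp after the start lay between 12.2% and 13.5%, those at 434 bp at 48.4%, and the highest, at 1306 bp, at 84.7%. Their start windows, at 39.5% ± 3.63 and 24.3% ± 5.05, thus hold both low and high positions. With the window narrowed to 250 bp before and 50 bp after the start, Pcdhac1 was at 22.6%.

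**Figure D3:**
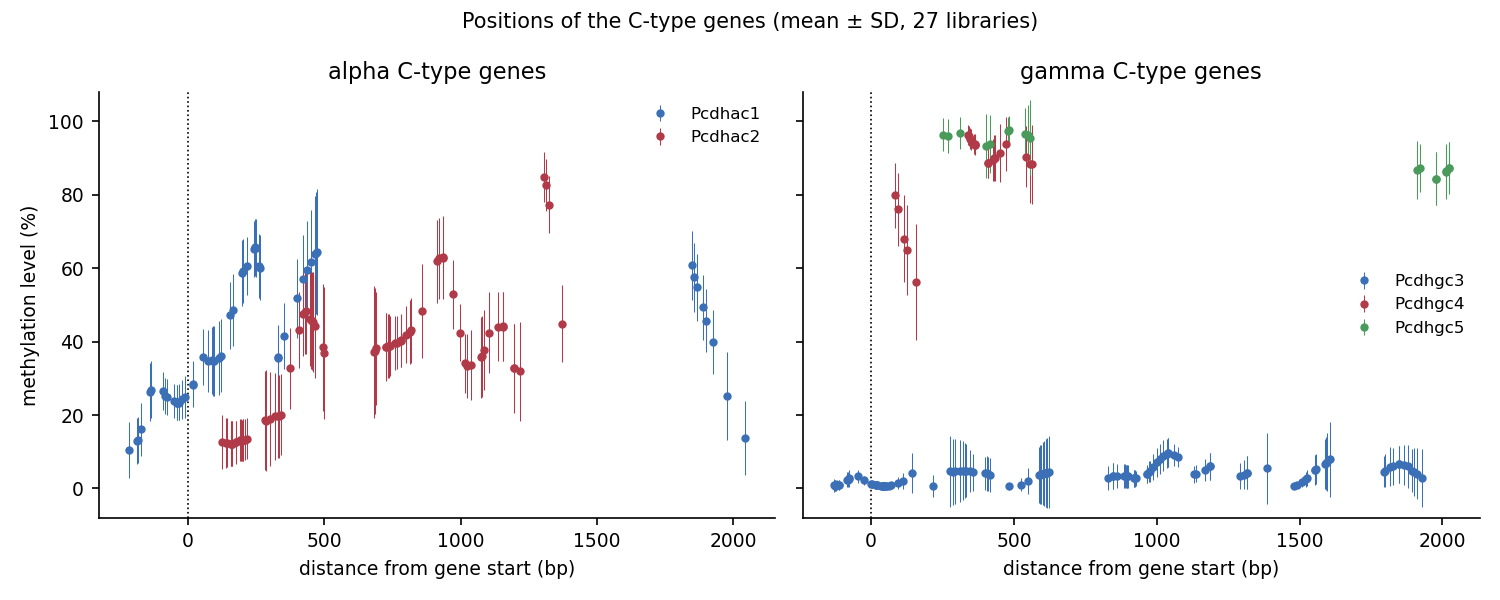
Methylation level (y axis, percent, ± SD over 27 libraries) of each kept position of the C-type genes by distance from the gene start (x axis, bp), alpha on the left and gamma on the right. Pcdhac1 and Pcdhac2 are low near their starts and graded further in, all position means of Pcdhgc3 stay under 10%, and Pcdhgc4 and Pcdhgc5 lie mostly above 80%.

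The beta genes ranged widely, from 30.7% to 84.0% over their kept positions. The run at the start of Pcdhb2 was the lowest measured run of the numbered genes. Of these genes only Pcdhb2, Pcdhb13 and Pcdhga11 had kept positions before the start. The run of Pcdhb2, at 37294792 to 37294946 (-48 to 106 bp from the start), stood at 13.98% ± 3.57 (lowest library 8.10%, median 13.0%, highest 22.9%), with single positions as low as 4.07%. The next run of the same gene, 979 to 1036 bp after the start, stood at 46.1% ± 9.06 and was higher in 27 of 27 libraries. Pcdhb1 had 48.3% ± 3.84 at 868 to 1195 bp, against 29.7% ± 5.10 at 225 to 352 bp, again higher inside the gene in 27 of 27. The run of Pcdhb13, which lies from -138 to -16 bp from its start, was at 50.6% ± 12.1.

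Further along the array, Pcdhb7 stood at 54.0% ± 15.8, Pcdhb10 at 31.4% ± 11.6 and Pcdhb15 at 46.9% ± 6.58. Pcdhb16 was at 79.0% ± 5.91, Pcdhb17 at 84.0% ± 4.19 and Pcdhb18 at 60.8% ± 7.32. Pcdhb7 had the largest SD of the 58 runs, with libraries from 25.1% over a median of 50.7% to 82.7%. Across the 9 measured beta genes, the order along the array and the mean level had a Spearman correlation of 0.767 (0.483 to 0.867 in single libraries). These are 9 genes of the same libraries, and the position of the measured fragment within the gene differs between them.

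The gamma A and gamma B genes, the numbered variable genes of that array, were highly methylated in almost all measured runs. Their kept positions lay after the gene start, except 12 of Pcdhga11, which averaged 53.0% ± 4.87. All 18 gamma A runs and 11 of 12 gamma B runs had a mean of 50% or more, with medians of 76.5% and 82.9%. The highest were Pcdhga12 (94.99% ± 1.83), Pcdhgb7 (93.1% ± 2.48), Pcdhgb6 (86.8% ± 6.07), Pcdhgb8 (84.2% ± 3.93), which the annotation lists as a transcribed pseudogene, Pcdhga8 (83.4% ± 4.91), Pcdhga7 (81.5% ± 6.04) and Pcdhgb2 (80.99% ± 3.33). Pcdhga4 (79.7% ± 2.34), Pcdhga11 (77.7% ± 2.03), Pcdhga3 (74.6% ± 2.75), Pcdhga2 (72.4% ± 4.92), Pcdhga5 (72.0% ± 4.11), Pcdhga9 (71.9% ± 4.04) and Pcdhga10 (71.5% ± 5.29) formed the middle, within which Pcdhga2, Pcdhga5, Pcdhga9 and Pcdhga10 do not differ beyond their spread. The lowest were Pcdhgb4 (63.5% ± 4.61), Pcdhga1 (62.9% ± 4.18), and Pcdhgb1, whose single run of 6 positions at 37681770 to 37681858 (1498 to 1586 bp after the start) stood at 40.4% ± 5.65 (lowest library 28.2%, median 40.5%, highest 52.0%).

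Levels were higher towards the end of the gamma A and B series. The last 8 measured genes of the series, from Pcdhga8 to Pcdhga12, averaged 83.0% ± 1.57, against 70.6% ± 1.57 for the first 8, from Pcdhga1 to Pcdhga7. The difference was 12.4 points ± 2.12 (SD) and lay between 9.08 and 16.5 points, positive in 27 of 27 libraries. Pcdhgb4 (63.5%), which lies between the 2 groups, is in neither, and the first 8 include Pcdhgb1 (40.4%). The position of the measured fragment within the gene differs between these genes. Over the 17 measured gamma A and B genes, order and mean level had a Spearman correlation of 0.581 (0.434 to 0.789 in single libraries), given as a description because the genes share libraries and the relation was looked at after the levels were seen. Among the 5 measured numbered alpha genes it was 0.300, and its sign varied between libraries (-0.600 to 0.600).

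**Figure D4:**
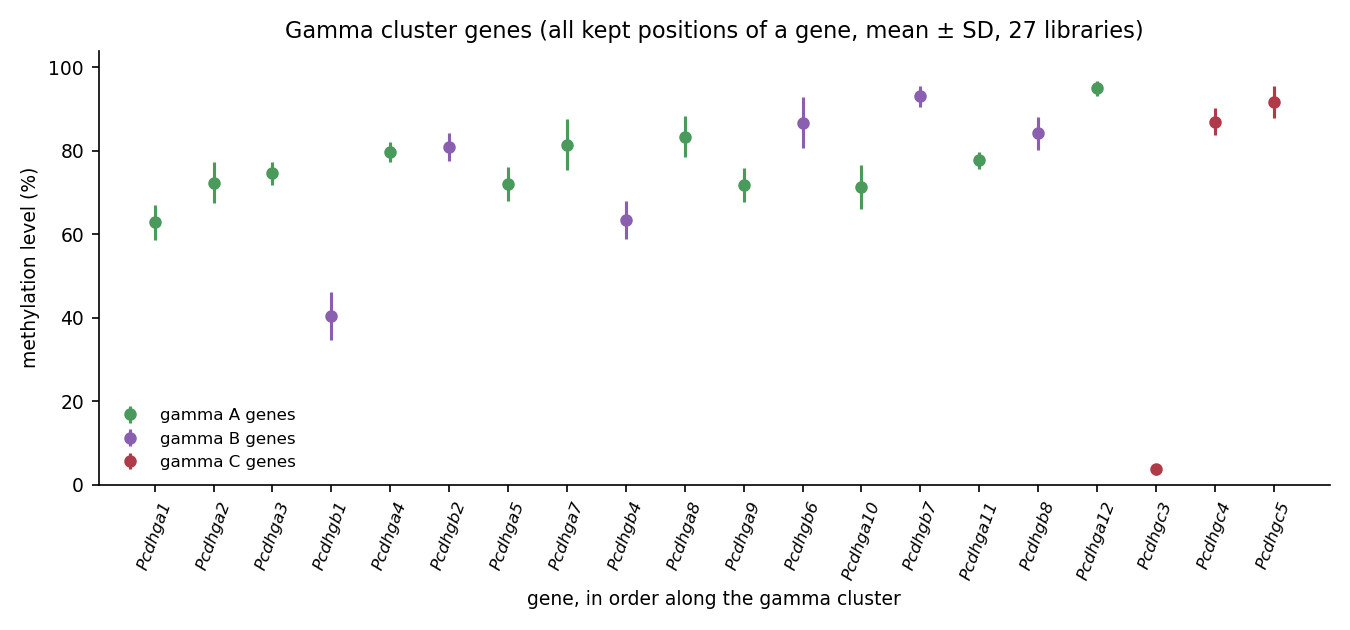
Mean methylation level (y axis, percent, ± SD over 27 libraries) of the 20 measured genes of the gamma array in their order (x axis), coloured by subfamily. The gamma A and B genes lie between 40.4% and 94.99%, Pcdhgc3 at 3.71%, and Pcdhgc4 and Pcdhgc5 at 87.0% and 91.7%.

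Pcdhgc3, the first of the gamma C-type genes, was nearly unmethylated amid highly methylated neighbours. Its run across the start, at 37806279 to 37807033 (from -131 to 623 bp from the start, 58 positions), stood at 2.46% ± 1.92 (lowest library 0%, median 1.83%, highest 7.94%). Its second run, 829 to 1928 bp after the start (61 positions), stood at 4.91% ± 1.77 (1.13%, 4.74%, 8.97%). No position of the gene had a mean over 9.79%, and the first 13 positions, before the start, averaged 1.69%. The depth behind the library at 0% is unknown, so no limit can be set on it. Single libraries could be higher at single positions. Position 37806686, 276 bp after the start, had a mean of 4.67%. It stood at 19.15%, 23.7% and 25% in the 12 h libraries and at 37.1% in replicate 3 of 60 h. It was looked at after its values were seen, and any difference between time points did not pass there (limma, adjusted p = 0.970).

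On both sides the level was high. Pcdhga12, whose last run ends 39318 bp before that of Pcdhgc3 begins, stood 91.3 points ± 2.73 above Pcdhgc3 (86.4 to 97.2 points over libraries). Pcdhgc4, whose run begins 6823 bp after Pcdhgc3's second run, stood at 87.0% ± 3.17 (79.8%, 87.5%, 91.8%), which is 83.3 points ± 3.63 above Pcdhgc3 (76.4 to 90.0 points). Pcdhgc5 stood at 91.7% ± 3.78, or 88.0 points ± 4.42 above it (79.1 to 96.1 points). Each difference was positive in 27 of 27 libraries, and the lowest library of Pcdhgc4 lay far above the highest of Pcdhgc3. Pcdhac1 and Pcdhac2, the C-type genes of the alpha array, also lay above Pcdhgc3 in 27 of 27 libraries, by 36.4 ± 2.63 and 31.5 ± 2.92 points. The 5 C-type genes thus covered nearly the whole scale. Within Pcdhgc4 the positions from 82 to 158 bp after the start declined in level from 79.8% to 56.2%, and those from 338 bp on lay above 88%.

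The run counted as gamma that belongs to no protocadherin lies at the higher end of Taf7, which encodes a subunit of the general transcription factor TFIID and sits between the beta and gamma arrays. It covers 37643935 to 37644210 with 51 positions and stood at 13.8% ± 2.71 (10.6%, 12.9%, 19.4%), with single positions from 4.2% to 35.2%. The Taf7 run lay 47.0 points below the last beta run, of Pcdhb18, and 49.2 points below the first gamma run, of Pcdhga1, in 27 of 27 libraries each. Slc25a2, a mitochondrial carrier gene beside Taf7, and Diaph1, beyond the gamma array, had no kept position from 1000 bp before to 1000 bp after the gene within the interval. Without the Taf7 run the gamma mean was 64.1%, and without the 2 runs of Pcdhgc3 it was 72.7%.

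Within a gene, the level near the start and further in could differ either way. Higher further in than near the start, in 27 of 27 libraries, were Pcdhb1 and Pcdhb2, as given above, and Pcdhgb4, with 75.6% ± 9.56 at 988 to 1140 bp, against 53.9% ± 8.54 at 135 to 277 bp. The reverse held in Pcdhga3, with 65.6% ± 4.81 at 850 to 1186 bp, against 82.3% ± 3.36 at 258 to 460 bp, where the run further in was lower in 27 of 27 libraries. It also held in Pcdhga8, with 65.2% ± 4.59 at 987 to 1097 bp, against 88.2% ± 6.40 at 40 to 288 bp, lower in 26 of 27. In Pcdhga4 the 2 runs, at 79.5% ± 2.83 further in and 80.2% ± 5.05 near the start, did not differ beyond their spread. Averaged over the numbered genes of the 3 arrays, positions in the first 500 bp after the start had 70.9% ± 1.32 (199 positions of 16 genes), those from 1000 bp up to 2000 bp 70.2% ± 1.68 (228 positions of 23 genes), and those up to 1000 bp before the start 41.7% ± 4.16. The last value rests on 25 positions of 3 genes, Pcdhb2, Pcdhb13 and Pcdhga11, so the region before the start is hardly covered. In Pcdhga11 the narrower window of 250 bp before to 50 bp after the start stood at 60.5%, against 74.3% ± 2.42 for the wider one, and in Pcdhga2 it stood at 90.5%, against 77.3% ± 5.34.

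The spread between libraries was similar to that of other loci of the same level. Among runs with a mean of 10% to 90%, the median SD was 5.91 points for the 51 runs of the interval (quartiles 4.02 and 8.28) and 5.49 points for the 7296 other runs (quartiles 3.84 and 7.84). For runs of 50% to 75% it was 6.95 points in the interval (18 runs) and 6.42 elsewhere, and for runs of 75% to 90% 5.34 points (19 runs) and 5.09 elsewhere. The numbered alpha runs were the most variable type, with a median SD of 9.94 points, and they were also short, with 5 to 15 positions each. Within runs, position means of the interval spanned a median of 25.9 points at 10% to 90%, against 25.9 points in other runs of that level. At this level runs held a median of 12 positions in the interval and 15 elsewhere.

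Whether protocadherin methylation changed over the 48 h after the shock was asked first of the cluster means. By time point, the gamma mean lay between 59.2% ± 0.630 (30 h) and 60.99% ± 0.413 (36 h; SD, n = 3 each), a range of 1.83 points against a pooled SD within time points of 0.732. The beta mean lay between 47.0% ± 1.80 (30 h) and 52.6% ± 2.09 (12 h), a range of 5.59 against 2.58 points. The alpha mean lay between 40.6% ± 1.56 (30 h) and 44.7% ± 1.22 (60 h), a range of 4.09 against 1.77 points. In all 3 clusters the 30 h libraries had the lowest time point mean, a pattern seen in the values and not tested.

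**Figure D5:**
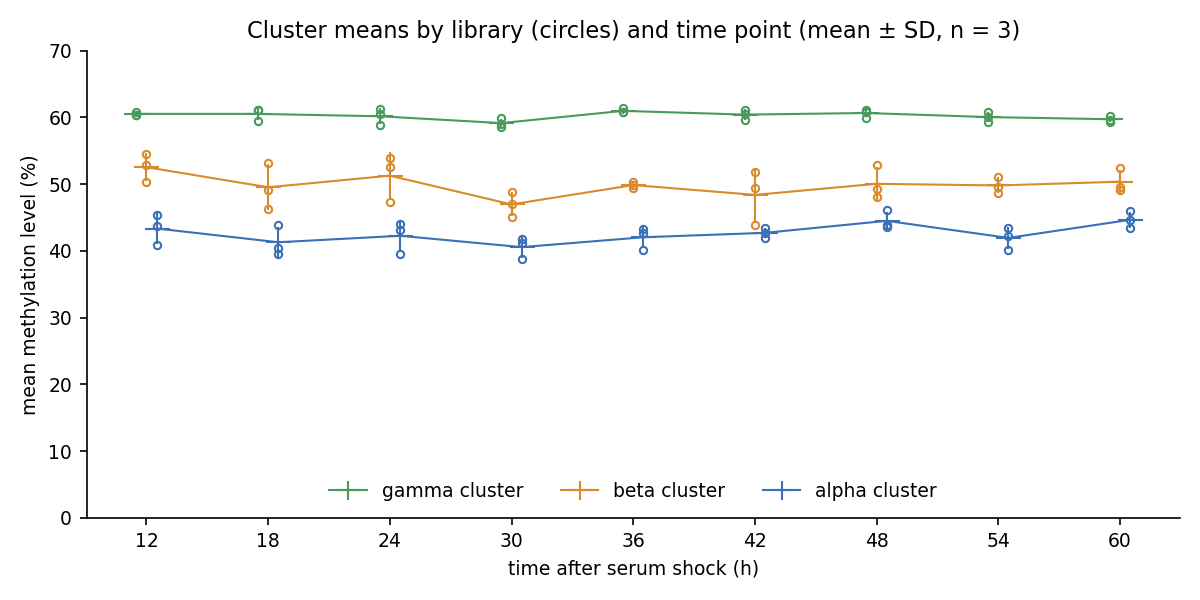
Mean methylation level of each cluster (y axis, percent) by time after the serum shock (x axis, h), with circles for the 27 libraries and lines for the time point means ± SD (n = 3). With every position weighing the same, the time point means keep the order gamma, beta, alpha, and the time point means move by at most 5.59 points within a cluster.

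The 58 runs were then tested in a linear model fitted over all 18447 runs of the table (limma, percentage points, Benjamini-Hochberg adjustment over all runs). For a 24 h rhythm, 0 of the 58 runs passed an adjusted p of 0.05, as did 0% of all runs, and 1 (1.72%) had an unadjusted p under 0.05, against 4.34% of all runs. For any difference between time points, 0 passed, against 0.00542% of all runs, and 2 (3.45%) had an unadjusted p under 0.05, against 4.3%. For the linear trend, 0 passed (0% of all runs) and 3 (5.17%) had an unadjusted p under 0.05, against 4.99%. For 60 h minus 12 h, 0 passed (0% of all runs) and 2 (3.45%) had an unadjusted p under 0.05, against 5.33%. The shares of protocadherin runs were thus near those of the table.

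Fitted 24 h amplitudes ran from 0.151 to 8.84 points with a median of 1.82, and their upper 95% limits from 1.48 to 18.5 points. The limit lay under 5 points for 29 of 58 runs and under 10 points for 49. At Pcdhgc3 the limits were 2.38 and 1.48 points, and at the first run of Pcdha5, the most variable alpha run, 18.5 points (amplitude 8.84, SE 3.72, adjusted p = 0.980). The smallest unadjusted rhythm p belonged to the run of Pcdhgb4 at 988 to 1140 bp (amplitude 6.22 points, SE 2.35, adjusted p = 0.980). Its libraries at 12 h stood at 86.1%, 59.3% and 100%, an SD of 20.7 points, and the SD at the other times lay between 2.72 and 13.5 points. In the alpha and beta arrays the smallest rhythm p-values belonged to Pcdha12 (second run, 6.93 points) and Pcdhb1 (second run, 2.22 points).

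The difference between the last and the first time with the smallest p was that of Pcdhga10 (37747418 to 37747532, 402 to 516 bp after the start). The level was 64.0%, 67.5% and 64.7% in the 60 h libraries, against 86.7%, 75.5% and 76.4% in the 12 h libraries. The highest of these values was that of replicate 1 of 12 h. The difference of -14.1 points (SE 3.77, 95% interval -22.02 to -6.27) did not pass the adjustment over all runs (adjusted p = 0.703). The 7 time points between stood at 70.3% to 72.0%, so the values at both ends set the slope of -6.79 points per 48 h (SE 2.84, adjusted p = 0.976). Without replicate 1 of 12 h the difference was -10.6 points, and with no filter on missing values it was -8.40 points; the slope was then -4.38 and -3.65 points per 48 h.

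Pcdha8 gave the next smallest p at 60 h against 12 h. It stood at 61.9%, 61.4% and 63.1% in the 60 h libraries, against 65.7%, 75.8% and 76.7% in the 12 h libraries. The difference was -10.6 points (SE 4.19, 95% interval -19.4 to -1.86, adjusted p = 0.917). It also had the smallest p for any difference between time points (range 16.0 points, adjusted p = 0.990), between the 30 h mean of 56.8% ± 3.05 and the 12 h mean of 72.7% ± 6.09. Pcdhga1 came next (range 8.70 points, adjusted p = 0.990), the highest mean being 68.1% ± 2.58 (24 h) and the lowest 59.4% ± 4.90 (42 h; SD, n = 3 each).

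The first run of Pcdha12 had the largest positive difference, 16.3 points (adjusted p = 0.980), and it rested on 1 library. It stood at 54.9%, 75.8% and 68.6% in the 60 h libraries, against 54.4%, 81.5% and 14.5% in the 12 h libraries. Without replicate 3 of 12 h the difference was -1.55 points, and without replicate 2 of 12 h it was 31.96 points. Other runs with a small trend p were those of Pcdhgb7 (2386 to 2603 bp, -3.04 points per 48 h) and of Pcdhb2 at 979 to 1036 bp (10.3 points per 48 h), with an adjusted p of 0.976 for both. For the nearly unmethylated start of Pcdhgc3 the 60 h libraries stood at 2.06%, 1.24% and 7.05%, against 2.78%, 5.20% and 4.14% in the 12 h libraries. That difference was -0.592 points (95% interval -3.76 to 2.57, adjusted p = 1).

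Single positions gave the same picture. Tested over all 871894 positions, 0 of the 978 passed any of the 4 tests, against 0%, 0.00413%, 0% and 0.007% of all positions for the rhythm, the time points, the trend and 60 h minus 12 h. At an unadjusted p under 0.05 the shares were 3.27%, 6.13%, 4.91% and 4.7% of the 978 positions, against 3.91%, 4.17%, 4.48% and 5.26% of all positions. A single position stood high among all positions for the trend, with rank 11 of 871894: position 37754222, at 2603 bp after the start of Pcdhgb7. It was looked at after its value was seen. Its level was 85.5%, 86.8% and 90.0% in the 60 h libraries, against 97.5%, 95.9% and 91.9% in the 12 h libraries, and the means at 18, 36 and 54 h were 95.8% ± 1.39, 92.0% ± 1.33 and 91.0% ± 1.17 (SD, n = 3). The slope was -6.65 points per 48 h (SE 1.32) and did not pass (limma, adjusted p = 0.975). At this position 5 of the 27 libraries hold exactly the same level, 91.9%, and only 19 distinct values occur. The whole run it belongs to, of 8 positions, had a slope of -3.04 points per 48 h (SE 1.23).

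Start windows in the arrays were more methylated than those of protocadherins elsewhere in the genome, but most held only positions after the start. Positions before the start were kept only for Pcdhac1, Pcdhb2, Pcdhb13, Pcdhga11 and Pcdhgc3. They averaged 41.7% in the numbered genes among these, 21.8% in Pcdhac1 and 1.69% in Pcdhgc3. How the windows of genes outside the arrays divide at the start was not examined. The start windows of clustered genes had a median of 65.9%, with 16 of 22 (72.7%) at 50% or more and 1 of 22 (4.55%) under 10%. Of 12 non-clustered protocadherins, 7 had a start window, with a median of 12.3%, and 0 of 7 had 50% or more. Over 9317 other protein-coding genes the median was 3.45%, with 6.26% at 50% or more and 72.2% under 10%. The lowest of the non-clustered genes was Pcdh18 (3.70% ± 1.25) and the highest the X-linked Pcdh19 (33.2% ± 8.84), with Pcdh8 at 23.4% ± 3.57 and Pcdh17 at 14.6% ± 4.30. Of 23 classical and related cadherins, 2 had a start window, Cdh24 (31.9% ± 1.46) and Cdh22 (11.04% ± 3.22).

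Genes whose products are known to act on the arrays had little methylation at their starts, with a median of 1.72% over the 7 of 15 that had a window. Most gene starts of the table were low as well. Of these 7 windows 71.4% were under 10%, against 72.2% for the other protein-coding genes, whose median was 3.45%. Ctcf, which encodes the insulator protein of the arrays' promoters, stood at 2.26% ± 0.680 and the cohesin gene Smc3 at 1.37% ± 0.868. Smchd1, whose product takes part in silencing of these arrays and of the inactive X, stood at 1.58% ± 0.760, the de novo methyltransferase gene Dnmt3b at 1.61% ± 1.32 and the histone methyltransferase gene Setdb1 at 1.72% ± 1.26. Uhrf1, which directs maintenance methylation, was higher (20.2% ± 3.64), as was the X-linked cohesin gene Smc1a (39.6% ± 9.61). The cell type of the line cannot be read from these levels, since no expression was measured here. Among muscle genes, the start windows of Tpm1 and Mylpf (3.36% ± 2.21 and 3.72% ± 5.49) were low, those of Des and Acta1 were at 12.3% ± 2.66 and 12.4% ± 4.09, and that of Myog was at 83.9% ± 3.43. Neural genes had a median of 11.1% over 4 windows, from Tubb3 (2.98% ± 1.82) to Syn1 (36.8% ± 15.4), the fibroblast gene Pdgfra stood at 63.5% ± 15.3, and the pluripotency genes Pou5f1 and Zfp42 at 54.9% ± 7.94 and 67.7% ± 3.16.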

How the data were processed

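RRBS was done on 27 libraries of C2C12 cells, 3 at each of 9 times. Per the submitters' processing notes, Bismark 0.14.4, Bowtie2, cutadapt 1.9.1 and Trim Galore 0.4.0 were used, with mm10. Settings, and the way levels were computed: not given in the sources used here. Per the file headers, the authors deposited for each position and library the methylated fraction, between 0 and 1, without read counts or coverage. The fraction values were multiplied to percent. Coordinates were taken as counted from 1, because 99.98% of 198793 positions inside RefSeq promoter sequences (GRCm38.p6) then fell on a CG. Library columns were matched to samples by time and replicate number, and 0 columns were left unmapped.

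Positions with a value in all 27 libraries (93% of 937644) were joined into runs where neighbours lay no more than 200 bp apart, runs under 3 positions were dropped, and a run's level is the mean of its positions. A run was given to the gene that starts at most 1000 bp after its middle, or else to the last gene that starts at most 4000 bp before it. Genes came from RefSeq (GRCm38.p6), and their strand outside the arrays from the RefSeq promoter table. Tests used limma 3.58.1 in R 4.3.3 on percentage points over all 27 libraries: a 24 h cosine and sine, the time point as a factor, linear time and 60 h minus 12 h. P-values were adjusted over all 18447 runs, with a threshold of 0.05. The steps were tested on simulated data. Other steps used matplotlib 3.10.9, scipy 1.17.1, pandas 2.3.3 and numpy 2.4.6 in Python 3.11.15.

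The members and gene lists were chosen with earlier results of these data known. The rule for named genes took, in each array, the lowest, middle and highest genes, those of largest and smallest SD, the C-type genes, the 2 runs with the smallest p of each test and the other genes of the interval; the remaining measured genes of the arrays, and some listed genes, are named beside these. Alternatives changed the scale, the filter on missing values, the gap, the smallest run, the covariates, the period, the start window and the libraries. No sequence of the arrays was used here.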

Additional observations from a re-analysis of the deposited data

How the results depend on the processing

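Depth is unknown, so no level could be weighted by it. The count of protocadherin runs passing a test was 0 under every alternative run, leave-outs of single libraries included. Over all runs, the count for any difference between time points, 1 as reported, was 0 on the M-value scale and with the library mean as covariate, 0 to 3 when 1 library was left out, and 36 for single positions. For 60 h minus 12 h, 0 as reported, it was 0 to 4 when 1 library was left out and 61 for single positions. With the replicate number as a block, 2 runs passed for any difference between time points and 0 for the other tests; it changed no call in the interval. Replicate numbers were taken as names and not as pairs, because correlations of deviations between same-numbered libraries were all under 0.1 (mean 0.00489, -0.0434 to 0.0378). However, 18 of 27 libraries correlated best with their own number, where 9 would by number alone, a hint from the data and not the design. The alpha mean of 42.6% was 48.9% with equal weight per run and the beta mean of 49.9% was 48.6%, which turned their order round; beta then lay above alpha in 12 of 27 libraries. The gamma mean of 60.3% was 61.1% with positions 1 bp apart averaged first, 62.7% with no filter on missing values, 72.1% with equal weight per run and, chosen after seeing the data, 64.1% without the Taf7 run and 72.7% without the runs of Pcdhgc3. For 60 h minus 12 h, 2 values reversed, neither of which had passed: the first run of Pcdha12 (-1.55 to 31.96 points when 1 library was left out, the lowest without replicate 3 of 12 h) and the second run of Pcdhga8 (1.75 points with no filter, against -6.15). Of 644 recomputed start window levels 4 moved by more than 1 SD, 3 of them with the narrower window. Most of the 644 left out 1 library, which cannot move a mean over 27 libraries by 1 SD. The narrower window held enough positions only in Pcdhac1, Pcdhb2, Pcdhb13, Pcdhga2, Pcdhga11 and Pcdhgc3. With it Pcdhac1 went from 39.5% to 22.6%, Pcdhga2 from 77.3% to 90.5% and Pcdhga11 from 74.3% to 60.5%. The order correlation of the gamma A and B genes was 0.711 with no filter. The causes of these changes were not tested.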

Other observations

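Exact repeats of a level between libraries were more common in the interval than in the table. At 83 of the 978 positions (8.49%) at least 2 libraries held exactly the same level other than 0% and 100%, against 41757 of 871894 positions (4.79%). The 2 sets were not matched for level. Levels at exactly 0%, which cannot count as repeats here, were more frequent in the table than in the interval in every library. The interval also kept a smaller share of its positions when a value in every library was required, with 88.0%, against 93% in the table. By array the share was 86.2% in gamma, 94.2% in beta and 90.8% in alpha.

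The number of positions in a run and its level were related differently in the interval. Across the 58 runs the Spearman correlation was 0.0820, against -0.479 across the 18389 other runs. Most of those other runs lay under 10%, as given above. Among runs with a mean of 10% to 90% it was 0.253 in the interval (51 runs), against -0.283 elsewhere (7296 runs). All are descriptions across runs, which share libraries. The largest runs of the interval were those of Pcdhac2 (76 positions, 35.2%), Pcdhgc3 (61 positions at 4.91% and 58 at 2.46%), Taf7 (51 positions, 13.8%) and Pcdhac1 (45 positions, 39.5%), all below the median run of 66.4%.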
